A study of Homo sapiens with 8 samples.

Results

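The genes described here are 10 components of the machinery that takes a cell from G1 into S phase, chosen by symbol: the D-type cyclins CCND1, CCND2 and CCND3, their kinases CDK4 and CDK6, the E-type cyclins CCNE1 and CCNE2, their kinase CDK2, the phosphatase CDC25A and the retinoblastoma gene RB1. All 10 were among the 18656 gene symbols listed and among the 11894 kept for testing (at or above 1 TPM, a length-normalised measure of transcript abundance, in 2 or more libraries). Total RNA was sequenced from SW480, a long-established human colorectal cancer line with truncated APC and an active Wnt pathway. Cells given small interfering RNA (siRNA) against TCF7L2 were taken at 24, 48 and 72 h, with 2 libraries for each time, and cells given a negative-control siRNA form the 0 h group, also with 2 libraries. The siRNA was carried in by a lipofectamine reagent. The control siRNA is listed at 0 h alone, so in every comparison with it the silencing of TCF7L2 cannot be told apart from the hours that had passed. All libraries come from a single cell line. The treatment protocol speaks of more treated replicates than the 2 libraries listed for each group, and separate cultures are not stated. A p-value here therefore measures the spread among these libraries alone, which may be technical. As deposited, that spread was pooled over genes of similar level, so the standard error (SE) of a gene is not its own spread between replicates.

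In G1, mitogenic signals raise the D-type cyclins, which bind CDK4 or CDK6 and begin the phosphorylation of RB1. Phosphorylated RB1 releases E2F transcription factors, which switch on CCNE1, CCNE2, CDC25A and the genes of DNA replication. Cyclin E with CDK2, relieved of inhibitory phosphate by CDC25A, completes RB1 phosphorylation and starts S phase, while inhibitors of the INK4 and CIP/KIP families hold these kinases back. In colorectal cancer cells CCND1 is widely described as a target of beta-catenin with the TCF/LEF factors, the family to which TCF7L2 belongs.

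TCF7L2 itself had 5.435 ± 0.54 TPM at 24 h, 4.50 ± 0.60 TPM at 48 h and 3.80 ± 0.38 TPM at 72 h of its siRNA, against 7.17 ± 0.43 TPM in the control (SD, n = 2 each). Its fall passed the test at 48 h and 72 h (limma adjusted p = 0.01114 and 2.978e-05) and not at 24 h (adjusted p = 0.6374). Between 11358 and 11717 genes reached 1 TPM in a library, and replicate libraries correlated across genes at 0.992 to 0.996 on the log2 scale. Replicate 2 at 72 h stood apart: its listed TPM summed to 352455.7, against 448107.5 to 485601.5 in the other 7 libraries. The depth behind a level is unknown, since TPM does not keep it. Because of that library, every change is given on the TPM as deposited and, where stated, after median-ratio scaling, which divides each library by its median ratio to the mean profile. At 72 h the median gene stood at -0.19 on the log2 scale as deposited and at 0.00 after scaling. Scaled, TCF7L2 was at 63.11% of the control mean at 48 h and 61.75% at 72 h. Both falls still passed on that scale (limma adjusted p = 0.007245 and 0.001967). Between 48 h and 72 h TCF7L2 changed by -0.19 as deposited and -0.02 scaled (limma adjusted p = 0.3978 and 0.8927). Of 9 colorectal epithelial markers, EPCAM, KRT8, KRT18, KRT19 and VIL1 were at 129 to 1485 TPM over all libraries and CDH1 at 12.2 to 17.2 TPM, while CDX2, KRT20 and CDX1 were low, at 4.42 to 9.56, 0.52 to 2.98 and 0.66 to 1.68 TPM. The 4 endothelial markers summed to 0.6 TPM at most. The sum of 6 fibroblast markers was 9.29 to 11 TPM at 24 h, 28.4 to 29.1 TPM at 48 h and 36.1 to 52.2 TPM at 72 h, against 10.9 to 12.8 TPM in the control, most of it LUM. The sum of 5 leukocyte markers was 2.17 to 2.65, 4.85 to 5.36 and 8.17 to 8.47 TPM at 24, 48 and 72 h, against 2.42 to 2.43 TPM in the control, most of it LYZ. The part of these markers in the changes below was not tested.

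The 10 genes fell into 3 courses by their levels. CCND1, CCND2, CCND3, CDK4 and CDC25A were lowest at 72 h, where all 5 were below the control. CCNE1, CCNE2, CDK2 and CDK6 had their lowest mean at 24 h as deposited. Scaled, the CCNE1 mean was 63.4% of the control mean at 24 h and 62.4% at 48 h, so its lowest was then at 48 h. RB1 had no change that passed a test with all 8 libraries in the fit. Over all groups together, limma's F-test at an adjusted p under 0.05 called 8 of the 10, all but CDK2 and RB1, against 40.4% of all genes tested. The adjusted F-test p ranged from 7.113e-07 for CDK4 to 0.02632 for CCND3 among those 8, and was 0.1634 for CDK2 and 0.4877 for RB1. After scaling 8 were also called, with CDK2 (adjusted p = 0.01193) in place of CCND3 (adjusted p = 0.06937), against 56.7% of all genes. In bulk RNA, fewer cells in a given phase of the cycle and less RNA of a gene per cell cannot be told apart.

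**Figure D1:**
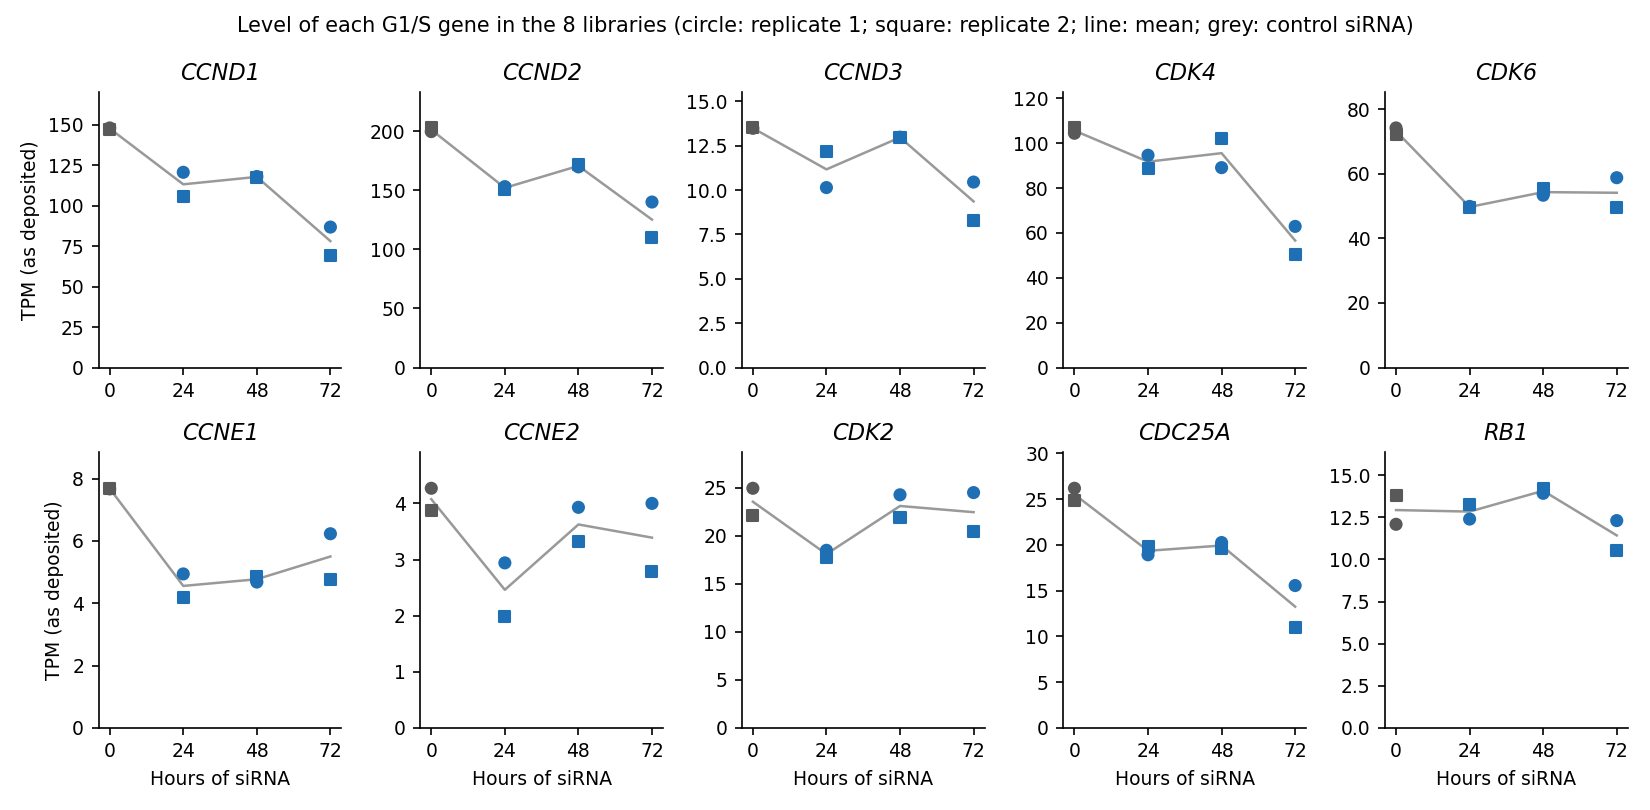
Level of each gene in TPM as deposited (vertical axes, each from 0) against hours of siRNA (horizontal axes), with a circle for replicate 1, a square for replicate 2, a line through the means and grey symbols for control siRNA at 0 h. CCND1, CCND2, CDK4 and CDC25A are lowest at 72 h, while CCNE1, CCNE2, CDK2 and CDK6 have their lowest mean at 24 h.

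The D-type cyclins are the partners through which growth signals reach CDK4 and CDK6. CCND1 (GRCh38 chromosome 11, 69641087 to 69654474, plus strand) had 148 and 147 TPM in the control libraries at 0 h, 121 and 106 TPM at 24 h, 118 and 118 TPM at 48 h, and 86.7 and 69.4 TPM at 72 h. Every siRNA library lay below both control libraries, and the 72 h libraries lay below all others. The 72 h mean of 78.1 ± 12.3 TPM was 52.9% of the control mean of 148 ± 0.47 TPM (SD, n = 2 each). Its log2 fold change was -0.92 ± 0.16 (SE, limma adjusted p = 2.702e-07) as deposited and -0.70 ± 0.06 (adjusted p = 1.176e-05) scaled. At 24 h and 48 h its changes of -0.38 ± 0.16 and -0.32 ± 0.16 did not pass as deposited (adjusted p = 0.5131 and 0.2485). Scaled, the change at 48 h was called at -0.32 ± 0.06 (adjusted p = 0.004719) and that at 24 h missed at -0.29 ± 0.06 (adjusted p = 0.05457).

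CCND2 (GRCh38 chromosome 12, 4273772 to 4305350, plus strand) was the most abundant cyclin of the group. It had 199.83 and 203 TPM in the control at 0 h, 153 and 151 TPM at 24 h, 169.92 and 172 TPM at 48 h, and 140.16 and 110.35 TPM at 72 h. The groups did not overlap at any time, and 48 h lay between 24 h and the control. The fall at 72 h was -0.69 ± 0.16 (SE, limma adjusted p = 0.0001873) as deposited and -0.47 ± 0.04 (adjusted p = 1.298e-05) scaled. At 24 h the change of -0.40 ± 0.16 did not pass as deposited (adjusted p = 0.4864) and was called scaled, at -0.31 ± 0.04 (adjusted p = 0.01455). CCND3 (GRCh38 chromosome 6, 41934933 to 42050357, minus strand) was expressed at a lower level per length, with 13.5 and 13.5 TPM at 0 h, 10.1 and 12.2 TPM at 24 h, 12.98 and 12.95 TPM at 48 h, and 10.45 and 8.27 TPM at 72 h. Its 24 h and 72 h libraries overlapped. CCND3 fell by 0.49 ± 0.16 at 72 h (SE, limma adjusted p = 0.008096; scaled change -0.29 ± 0.09, adjusted p = 0.02361). At 24 h and 48 h its changes were -0.26 and -0.05, with adjusted p of 0.8091 and 0.91. The share of CCND2 in the summed TPM of the 3 D-type cyclins was 59.1% and 58.7% at 72 h, against 55.3% and 55.8% in the control. CCND1 made up 36.6% and 36.9% of that sum at 72 h and 41.0% and 40.5% in the control.

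CDK4 and CDK6 are the catalytic partners of the D-type cyclins and phosphorylate RB1. CDK4 (GRCh38 chromosome 12, 57747727 to 57756013, minus strand) had 104 and 107 TPM in the control at 0 h, 94.65 and 88.9 TPM at 24 h, 89.1 and 102 TPM at 48 h, and 62.9 and 50.3 TPM at 72 h. All siRNA libraries were below the control, the 24 h and 48 h libraries overlapped, and both 72 h libraries were below every other. Its change at 72 h was -0.90 ± 0.16 as deposited (SE, limma adjusted p = 4.7e-07) and -0.68 ± 0.06 scaled (adjusted p = 2.237e-05), which left 53.6% of the control mean as deposited and 62.1% scaled. At 24 h and 48 h CDK4 stood at -0.20 ± 0.16 and -0.15 ± 0.16 (adjusted p = 0.8722 and 0.7002), and scaling did not bring either past the threshold. Of the exon bases annotated to CDK4, 43.2% overlap TSPAN31 on the opposite strand. Whether the counting used strand is not stated, so reads in the overlap are uncertain between the genes. TSPAN31 was at 15.2 to 16.9 TPM at 24 h, 18.6 to 19.1 TPM at 48 h and 13.5 to 19.7 TPM at 72 h, against 14.3 to 17.7 TPM in the control.

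The RefSeq promoter window of CDK4 is shown because CDK4 had the smallest F-test p of the 10 and because its window repeats a single word. It spans chr12:57752261-57752560 of GRCh38.p14, minus strand, 250 bases before to 50 after the start site, and lies within the longer GENCODE span given above. Capitals mark the E-box word CACGTG, a palindrome recognised by basic helix-loop-helix leucine zipper factors.
CDK4: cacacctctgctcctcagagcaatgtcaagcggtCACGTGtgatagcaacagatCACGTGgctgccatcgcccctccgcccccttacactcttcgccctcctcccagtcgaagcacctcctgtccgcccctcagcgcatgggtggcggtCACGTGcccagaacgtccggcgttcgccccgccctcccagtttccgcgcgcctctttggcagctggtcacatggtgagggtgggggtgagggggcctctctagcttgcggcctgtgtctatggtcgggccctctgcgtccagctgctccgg
The word stood 3 times, at -216, -196 and -101 from the start site, while 7.26% of 35116 promoter windows of this length held it at least once. It was added to the search after this window had been read, so its presence here is a description. No E2F word (TTTCCCGC, TTTCGCGC, TTTGCCGC or TTTGGCGC) was found in this window on either strand. Nor was a TCF/LEF word (CTTTGAA and CTTTGAT, as well as CTTTGTA and CTTTGTT) or the cell-cycle homology word TTTGAA.

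CDK6 (GRCh38 chromosome 7, 92604921 to 92836594, minus strand) followed another course than CDK4. Its levels were 74.2 and 72.2 TPM at 0 h, 49.9 and 49.55 TPM at 24 h, 53.35 and 55.3 TPM at 48 h, and 58.8 and 49.4 TPM at 72 h. All siRNA libraries lay below the control, and as deposited the 72 h libraries spanned those of 24 h and 48 h. Scaled, both 72 h libraries, at 56.7 and 61.5 TPM, lay above those of 24 h and 48 h. The 24 h change of -0.55 ± 0.16 did not pass as deposited (limma adjusted p = 0.1022) and was called scaled, at -0.45 ± 0.05 (adjusted p = 0.01172). Only 0.462% of all genes tested had a lower log2 change at 24 h as deposited. At 72 h CDK6 fell by 0.43 ± 0.16 (adjusted p = 0.02009), and by 0.22 ± 0.05 scaled (adjusted p = 0.008209). In 1 of its 2 RefSeq windows the E-box word stood 31 bases past the start.

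CDC25A (GRCh38 chromosome 3, 48157146 to 48188402, minus strand) encodes the phosphatase that removes inhibitory phosphate from CDK2, and is a known E2F target. It had 26.2 and 24.8 TPM in the control at 0 h, 18.9 and 19.8 TPM at 24 h, 20.25 and 19.6 TPM at 48 h, and 15.55 and 10.9 TPM at 72 h. The 24 h and 48 h libraries overlapped below the control, and the 72 h libraries were lowest. Those 72 h libraries lay far from each other as deposited, and stood at 15.0 and 13.6 TPM scaled. The 72 h change was -0.91 ± 0.16 as deposited (SE, limma adjusted p = 1.89e-07) and -0.71 ± 0.07 scaled (adjusted p = 4.689e-05). At 48 h CDC25A was called only after scaling, at -0.33 ± 0.07 (adjusted p = 0.01128), against -0.34 ± 0.16 (adjusted p = 0.2033) as deposited. Its RefSeq promoter window is shown because it was the only one of the 9 windows found for these genes with an E2F word. It spans chr3:48188368-48188667 of GRCh38.p14, minus strand, with the E2F word in capitals.
CDC25A: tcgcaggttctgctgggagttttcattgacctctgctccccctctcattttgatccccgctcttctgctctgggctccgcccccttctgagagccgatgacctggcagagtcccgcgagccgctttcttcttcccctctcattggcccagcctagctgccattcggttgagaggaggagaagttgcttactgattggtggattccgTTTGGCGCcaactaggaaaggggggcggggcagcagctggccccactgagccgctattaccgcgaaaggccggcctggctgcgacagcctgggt
The word began at -44 from the start site, and 3.31% of all windows held such a word. A window was found for 6 of the 10 genes, namely CDK4, CDC25A, CDK6, CCND3, CCNE1 and RB1. A TCF/LEF word, held by 13.8% of all windows, stood at -6 in 1 of the 3 CCND3 windows (chr6:42048639-42048938). It also stood at 38 on the opposite strand in the RB1 window, which at chr13:48476200-48476499 lies inside the gene and not at its annotated 5′ end. The word TTTGAA, which is part of the TCF/LEF word CTTTGAA and held by 15.2% of all windows, was in none of these 9, and the CCNE1 window held no word searched.

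The E-type cyclins and CDK2 drive entry into S phase. CCNE1 (GRCh38 chromosome 19, 29811898 to 29824308, plus strand) had 7.67 and 7.69 TPM at 0 h, 4.94 and 4.17 TPM at 24 h, 4.68 and 4.86 TPM at 48 h, and 6.23 and 4.77 TPM at 72 h. It lay below the control in all 6 siRNA libraries, and its 72 h replicate 1 was above every 24 h and 48 h library. CCNE1 fell by 0.65 ± 0.16 at 24 h (SE, limma adjusted p = 0.02659) and by 0.59 ± 0.16 at 48 h (adjusted p = 0.008372), and both falls held scaled (adjusted p = 0.02978 and 0.002709). Of all genes tested, 0.168% had a lower log2 change at 24 h. At 72 h its change of -0.43 ± 0.16 passed as deposited (adjusted p = 0.02636) and, at -0.24 ± 0.09, did not after scaling (adjusted p = 0.05798). Without replicate 2 at 72 h it also missed, at -0.26 (adjusted p = 0.1056).

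CCNE2, the second E-type cyclin, lies on chromosome 8 and was the lowest of the 10 genes. It had 4.27 and 3.88 TPM at 0 h, 2.94 and 1.98 TPM at 24 h, 3.93 and 3.32 TPM at 48 h, and 4 and 2.78 TPM at 72 h. Only the 24 h libraries lay clear of the control. Its changes of -0.57 ± 0.17, -0.14 ± 0.17 and -0.22 ± 0.17 at 24, 48 and 72 h did not pass (limma adjusted p = 0.1101, 0.7389 and 0.2881). Of its exon bases, 37% overlap INTS8 on the opposite strand, which was at 18.6 to 19.5 TPM at 24 h, 21.8 to 25.8 TPM at 48 h and 25.0 to 29.8 TPM at 72 h, against 17.9 to 19.1 TPM in the control. CCNE2 is therefore uncertain where reads were not assigned by strand.

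CDK2 (GRCh38 chromosome 12, 55966769 to 55972784, plus strand), the kinase bound by cyclin E, had 24.95 and 22.15 TPM at 0 h, 18.5 and 17.7 TPM at 24 h, 24.3 and 21.9 TPM at 48 h, and 24.5 and 20.4 TPM at 72 h. The 24 h libraries were below all others, and the 48 h and 72 h libraries overlapped the control. Its changes from the control were -0.36 ± 0.16, -0.03 ± 0.16 and -0.07 ± 0.16 at 24, 48 and 72 h (limma adjusted p = 0.5691, 0.9608 and 0.755). Scaled, its 72 h change was of the other sign, at 0.14 ± 0.08 (adjusted p = 0.1744).

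RB1 (GRCh38 chromosome 13, 48303726 to 48599436, plus strand), the substrate of these kinases, had 12.1 and 13.8 TPM at 0 h, 12.4 and 13.3 TPM at 24 h, 13.9 and 14.2 TPM at 48 h, and 12.3 and 10.55 TPM at 72 h. Its 24 h and 72 h libraries overlapped the control, and its 48 h libraries lay just above it. The 72 h change was -0.17, with a 95% confidence interval of -0.48 to 0.15 (limma adjusted p = 0.4187), and scaled it was 0.04, with an interval of -0.16 to 0.23 (adjusted p = 0.7349). A change of RB1 of the size seen in CCND1 lay outside these intervals. The RB1 result depended on the 72 h libraries. Without replicate 1 at 72 h, RB1 stood at -0.27 against the control and at -0.38 against 48 h as deposited. The only 72 h library left in that fit is replicate 2, which had the lowest summed TPM of all libraries.

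At 24 h, 9 of the 10 genes had both libraries below both control libraries, all but RB1. Of all genes tested, 46.7% did so as deposited and 24.9% after scaling, which left the same 9 below. Only CCNE1 passed the test as deposited, against 0.252% of all genes called lower. After scaling CCNE1, CCND2 and CDK6 passed, against 0.437% of all genes. These calls were not stable to single libraries. CCNE1 lost its call as deposited without either library of the 0, 24 or 48 h groups (adjusted p 0.08567 to 0.9999). The 3 scaled calls were all lost without either 0 h or either 24 h library (adjusted p 0.08201 to 0.1857), and that of CCNE1 also without either 48 h library (adjusted p = 0.06026 and 0.06016). Without replicate 1 or 2 at 72 h, 6 of the 10 were called lower at 24 h, against 5.49% and 5.44% of all genes in those fits.

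At 48 h, only CCNE1 passed as deposited, against 3.14% of all genes called lower. It lost that call without either 0 h or either 48 h library (adjusted p 0.1328 to 0.1822), while without replicate 1 or 2 at 72 h 5 of the 10 were lower, against 14% and 13.9% of all genes in those fits. After scaling CCND1, CCND2, CDK6, CCNE1 and CDC25A were called, against 11.5% of all genes. CDC25A alone among them was lost without 0 h replicate 1 (adjusted p = 0.0835) or 48 h replicate 2 (adjusted p = 0.07112). Between 48 h and 24 h none of the 10 was called on either scale, against 5.02% of all genes called in either direction as deposited and 14% scaled. In limma CCNE2 and CDK2 alone had an unadjusted p under 0.05, at 0.43 ± 0.17 and 0.33 ± 0.16 as deposited, and likewise after scaling. Without replicate 1 or 2 at 72 h, CDK2 at 0.33 (adjusted p = 0.0207 and 0.02071) and CCND2 at 0.17 (adjusted p = 0.01593 and 0.01603) were called higher at 48 h, where 15.4% and 15.5% of all genes were.

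At 72 h, 7 of the 10 passed as deposited, all lower: the 3 D-type cyclins, CDK4, CDK6, CCNE1 and CDC25A. Of all genes tested, 31.2% were called lower and 10.5% higher. After scaling 6 of the 10 were called lower, the same without CCNE1, against 26.2% of all genes called lower and 25.8% higher. The median change of the 10 was -0.46 as deposited, against -0.19 over all genes, and -0.26 scaled, against 0.00. The calls of CCND1, CCND2, CDK4 and CDC25A held without any single library. As deposited, those of CCND3, CDK6 and CCNE1 were lost without either 0 h library (adjusted p 0.08935 to 0.1871), which left 4 of 7. The call of CDK6 was also lost without either 24 h library (adjusted p = 0.05624 and 0.05621) or either 48 h library (adjusted p = 0.05813 and 0.05817), and that of CCNE1 without 24 h replicate 2 (adjusted p = 0.05005). Scaled, CCND3 missed without either 0 h or either 72 h library (adjusted p 0.05853 to 0.08513), and CDK6 without 0 h replicate 1 (adjusted p = 0.05857) or 72 h replicate 1 (adjusted p = 0.05129).

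**Figure D2:**
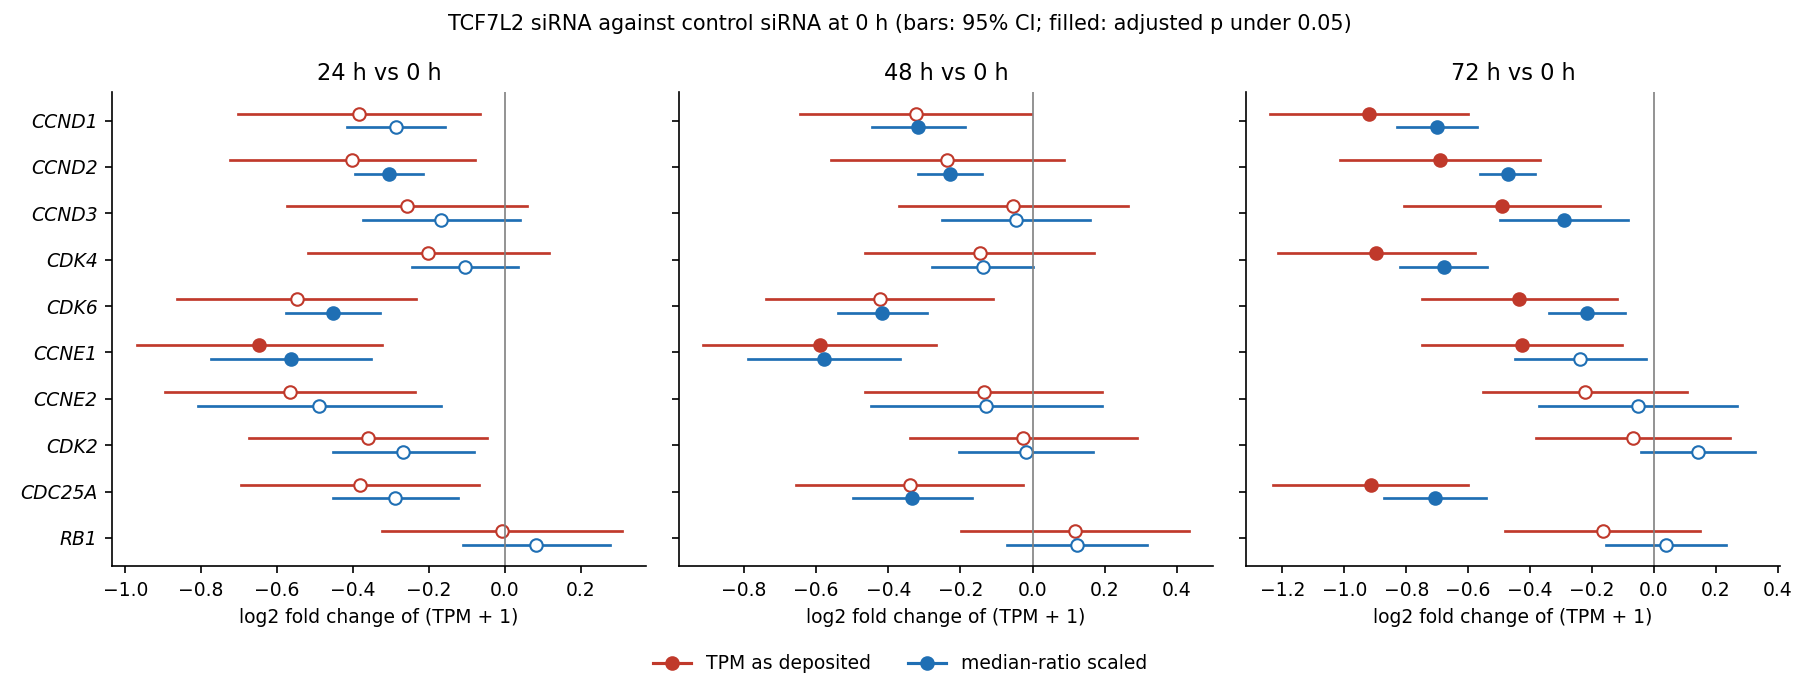
Log2 fold change of (TPM + 1) of each gene at 24, 48 and 72 h of TCF7L2 siRNA against control siRNA at 0 h (horizontal axes), as deposited in red and median-ratio scaled in blue, with 95% confidence intervals and filled symbols for an adjusted p under 0.05. At 72 h 7 genes are filled as deposited and 6 scaled, all to the left of 0, and RB1 is open in every panel.

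The later times were also set against the earlier ones. The 3 D-type cyclins, CDK4 and CDC25A were called lower at 72 h than at 48 h, 5 of the 10, against 22% of all genes. CDK4 had the largest of these changes, -0.75 ± 0.16 (SE, limma adjusted p = 7.913e-05), followed by CCND1 at -0.60 (adjusted p = 0.002503), CDC25A at -0.57 (adjusted p = 0.003104), CCND2 at -0.45 (adjusted p = 0.027) and CCND3 at -0.44 (adjusted p = 0.02924). Scaled, 4 of them remained called (19.4% of all genes were lower) and CCND3 missed (adjusted p = 0.0585). On that scale CDK6 and CCNE1 were called higher, at 0.20 ± 0.05 (adjusted p = 0.01734) and 0.34 ± 0.09 (adjusted p = 0.01746), where 20.5% of all genes were. As deposited, CDK6 stood at -0.01 and CCNE1 at 0.16 in this comparison. Without 48 h replicate 2 none of the 5 passed as deposited (adjusted p 0.05898 for CDK4 to 0.2476 for CCND2), and without 48 h replicate 1 CDK4 alone did. CCND2 and CCND3 were also lost without any library of 0 h or 24 h (adjusted p 0.06733 to 0.08713), and CCND3 without 72 h replicate 2 (adjusted p = 0.08145). The scaled rise of CDK6 was lost without either 48 h library or 72 h replicate 2 (adjusted p 0.05357 to 0.1049), and that of CCNE1 without any library of 48 h or 72 h (adjusted p 0.05382 to 0.07461).

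At 72 h against 24 h, CDK4 (-0.70 ± 0.16, limma adjusted p = 0.0001692), CCND1 (-0.54 ± 0.16, adjusted p = 0.005235) and CDC25A (-0.53 ± 0.16, adjusted p = 0.004629) were called lower as deposited, against 21.4% of all genes. No gene of the 10 was called higher, although CCNE2, CDK2, CCNE1 and CDK6 stood at 0.34, 0.29, 0.22 and 0.11. After scaling, CDK4, CCND1, CDC25A and CCND2 were called lower, against 25.2% of all genes. On that scale 4 of the 10 were called higher, against 24.9% of all genes: CCNE2 by 0.44 ± 0.14 (adjusted p = 0.02881), CDK2 by 0.41 ± 0.08 (adjusted p = 0.002609), CCNE1 by 0.32 ± 0.09 (adjusted p = 0.01678) and CDK6 by 0.24 ± 0.05 (adjusted p = 0.005696). These 4 had been grouped above by their lowest mean at 24 h in the same libraries. A rise from 24 h therefore follows in part from that grouping. Without 72 h replicate 2, 7 of the 10 were called as deposited, 4 higher and 3 lower, against 24.6% and 17.8% of all genes in that fit. CCND1 was lost as deposited without 24 h replicate 1 (adjusted p = 0.1922), and CDC25A without either 24 h library (adjusted p = 0.06235 and 0.1051). The scaled rises of CCNE1 and CCNE2 were lost without 24 h replicate 2 (adjusted p = 0.1293 and 0.2205) or 72 h replicate 1 (adjusted p = 0.05168 and 0.112). Those of CDK2 and CDK6 were kept without any single library. With no moderation of the spread across genes, 5 of the 10 passed as deposited at 72 h against the control, where 1994 of all 11894 genes did. None of the 10 passed in any of the other 5 comparisons. There 1 gene of all passed at 24 h and 5 at 48 h against the control. At 48 against 24 h 1 gene passed, at 72 against 48 h 99, and at 72 against 24 h 1193.

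**Figure D3:**
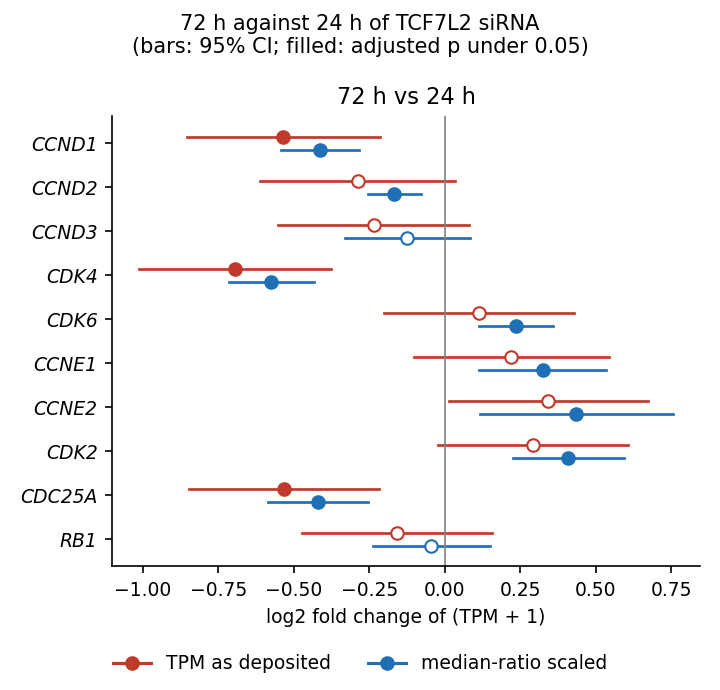
Log2 fold change of (TPM + 1) at 72 h against 24 h of TCF7L2 siRNA for each gene (horizontal axis), as deposited in red and median-ratio scaled in blue, with 95% confidence intervals and filled symbols for an adjusted p under 0.05. CCND1, CDK4 and CDC25A are filled left of 0 on both scales, and CCNE1, CCNE2, CDK2 and CDK6 lie right of 0 and are filled only after scaling.

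Ratios within a library do not depend on how libraries are scaled to each other. They were not tested and are given as values; an exact two-sided permutation test of 2 libraries against 2 cannot go below 0.333. The ratio of CDK4 to CDK6 in TPM was 1.41 and 1.48 in the control at 0 h, 1.90 and 1.79 at 24 h, 1.67 and 1.85 at 48 h, with 1.07 and 1.02 at 72 h. CDK4 exceeded CDK6 in every library, most at 24 h and 48 h and least at 72 h, with the 72 h and control libraries clear of the rest. The ratio of CCND1 to CCND2 plus CCND3 was 0.694 and 0.681 at 0 h, 0.738 and 0.647 at 24 h, 0.645 and 0.637 at 48 h, with 0.576 and 0.585 at 72 h. It was lowest at 72 h, below every other library. The D-type cyclins together stood at 7.12 and 6.96 times the summed TPM of the CIP/KIP inhibitors CDKN1A, CDKN1B and CDKN1C at 0 h, at 6.70 and 6.45 times at 24 h, 5.38 and 5.39 times at 48 h, and 4.28 and 4.48 times at 72 h. This ratio was lower at each later time, with no overlap between groups. CCNE1 over CCNE2 was 1.80 and 1.98 at 0 h, 1.68 and 2.11 at 24 h, 1.19 and 1.46 at 48 h, with 1.56 and 1.72 at 72 h. Both E-type cyclins over CDK2 stood at 0.479 and 0.522 at 0 h, and at 0.347 to 0.426 in the 6 siRNA libraries, whose groups overlapped.

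**Figure D4:**
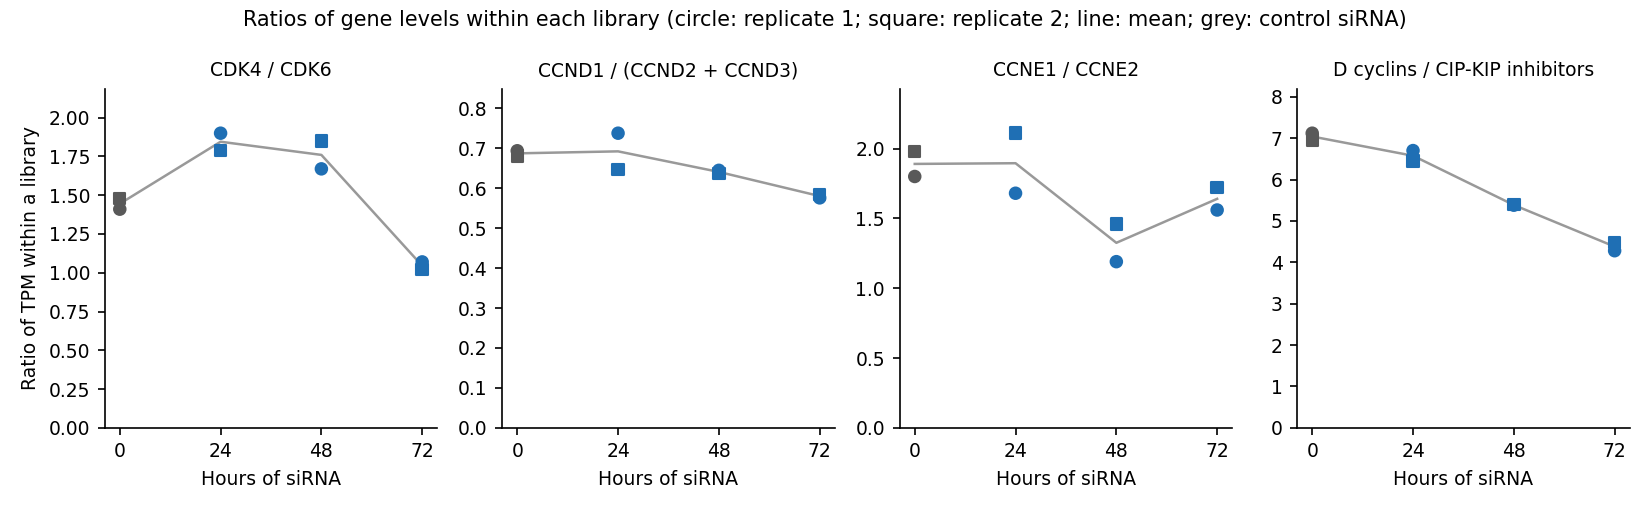
Ratios of TPM within each library (vertical axes, each from 0) against hours of siRNA, with circles for replicate 1, squares for replicate 2, lines through the means and grey symbols for control siRNA. CDK4 over CDK6 is between 1.02 and 1.07 at 72 h, and D-type cyclins over the CIP/KIP inhibitors are at 4.28 and 4.48 at 72 h, against 7.12 and 6.96 in the control.

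The regulators around these genes were described at 72 h against the control. Of 37 other G1/S regulators, 15 were called lower and 3 higher, with a median change of -0.27, and scaled 14 were lower and 6 higher. Those counts, and the counts by role that follow, stand against the 31.2% lower and 10.5% higher of all genes as deposited, and 26.2% and 25.8% scaled. Of the 10 E2F and DP factors, some of which are held by RB1 or its relatives, 6 were called lower. Among them were E2F2 at 2.27 ± 0.52 TPM, against 5.67 ± 0.35 TPM in the control (SD, n = 2 each; log2 change -1.04, limma adjusted p = 1.03e-08), and E2F6, a repressor that lacks the pocket-protein binding region, at -0.81 (adjusted p = 4.467e-06). TFDP2, a DP partner of the E2F factors, stood at 0.355 as deposited (adjusted p = 0.0613) and was called higher scaled, at 0.57 (adjusted p = 0.0008954). The pocket proteins RBL1 and RBL2, relatives of RB1, were not called. Of 8 CDK inhibitors, 2 rose and 2 fell as deposited, and 3 were higher and 1 lower scaled. CDKN2A, which encodes the CDK4 and CDK6 inhibitor p16 and, from another reading frame, ARF, had 54.2 ± 1.78 TPM at 72 h, against 29.04 ± 0.59 TPM in the control (log2 change 0.88, adjusted p = 6.162e-07), and CDKN2D, also of the INK4 family, fell by 0.88 (adjusted p = 8.695e-07). CDKN2B rose by 0.53. CDKN1C fell by 0.46 as deposited and missed scaled (-0.26, adjusted p = 0.06368), while CDKN1B, at 0.08 as deposited, was called higher scaled (0.29, adjusted p = 0.00812). TFDP2 and these 3 inhibitors were named after their values were seen. At 24 h CDKN1A, the CIP/KIP inhibitor p21, was the only one of the 37 called as deposited, at 7.88 ± 0.15 TPM, against 14.5 ± 0.57 TPM in the control (log2 change -0.81, adjusted p = 0.000506), and scaled E2F1 was called too (-0.35, adjusted p = 0.02797). Both were named after their values were seen.

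Among regulators of cyclin and CDK activity, PKMYT1, a kinase that inhibits CDK1, fell by 1.24 at 72 h (limma adjusted p = 3.874e-13), CKS1B, a cofactor in the breakdown of p27, by 1.08 (adjusted p = 6.093e-10), CCNH, the cyclin of the CDK-activating kinase, by 0.67 (adjusted p = 0.0002018) and FBXO4, an F-box protein described for cyclin D1 turnover, by 0.64 (adjusted p = 0.0004496). All 31 E2F target genes of G1/S in the list had passed the filter. At 72 h 26 were called lower and none higher, with a median of -0.58, and 22 were lower after scaling, where all genes stood at the shares above. The smallest p values were those of TK1 (log2 change -1.22), CDC45 (-0.92), MCM6 (-0.85) and RRM1 (-0.84), which serve nucleotide supply and the replicative helicase. At 24 h the 31 had a median of -0.31 as deposited, against -0.09 over all genes, and 16 had an unadjusted p under 0.05 in limma. The share of all genes at that unadjusted threshold was not taken. After adjustment limma called none of the 31 as deposited and 2 scaled, where 0.252% of all genes were called lower as deposited and 0.437% scaled. At 48 h 4 were called lower as deposited (GINS4, POLE, GINS2 and TYMS, named after their values were seen) and 16 scaled, GINS2 not among them (adjusted p = 0.05992), against 3.14% and 11.5% of all genes. Of 20 cyclins and CDKs outside G1, 19 were kept, and 4 fell and 2 rose at 72 h as deposited, with a median of -0.21 against -0.19 over all genes. Scaled, 2 were lower and 3 higher, with a median of -0.0038. CDK1, the mitotic kinase, fell by 0.55 and CCNC, a cyclin of the Mediator kinase module, by 0.68, while CDK8, the kinase of that module, rose by 0.48 and CCNI by 0.46.

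**Figure D5:**
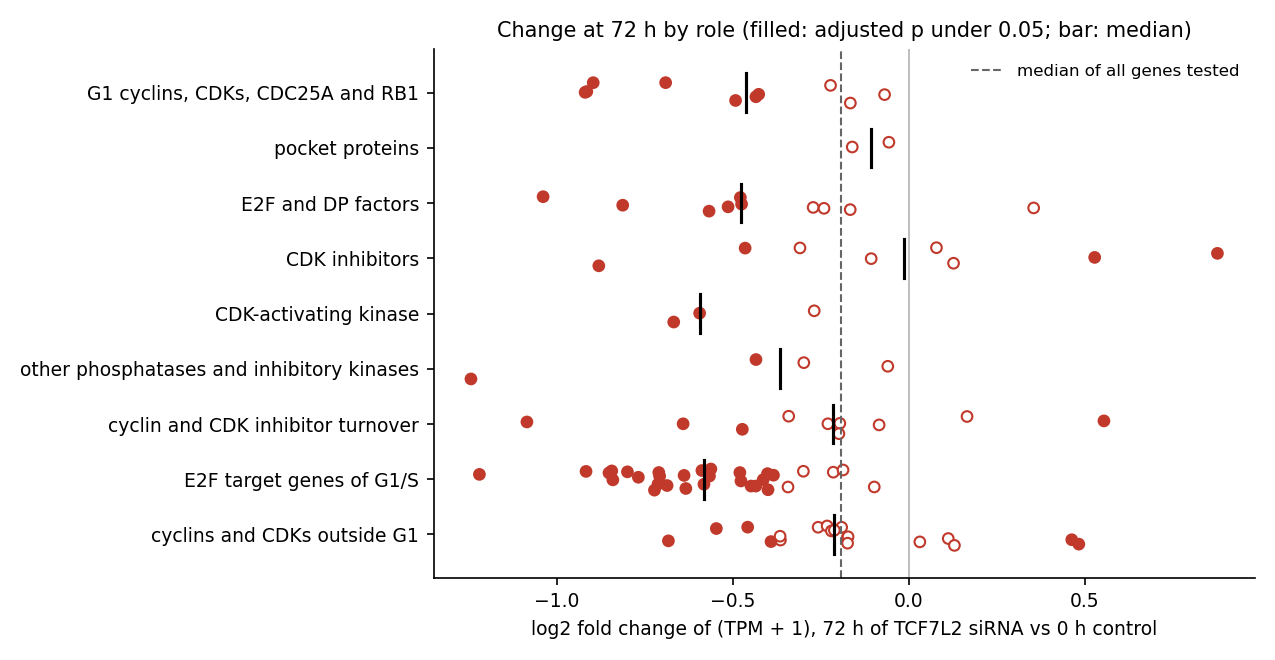
Log2 fold change of (TPM + 1) at 72 h of TCF7L2 siRNA against control siRNA at 0 h for the 10 genes and for other cell-cycle genes by role, with filled symbols for an adjusted p under 0.05, a bar at each group's median and a dashed line at the median of all genes tested. Most E2F target genes lie left of the dashed line with a median of -0.58, and the CDK inhibitors have filled symbols on both sides of 0.

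The genes with the most similar course were found for the 5 members with the smallest F-test p, by the root-mean-square distance of log2 values from the control mean over the 8 libraries, among 8910 genes with a mean of 5 TPM or more. Nearest to CDK4 were CXXC5, PSMG1 and RPP30, at distances of 0.051 to 0.0547. Nearest to CDC25A were NUP188, KIF1A and WDR4, and nearest to CCND1 were ULBP1, MCM6 and PLEC, at 0.0572 to 0.068 for these 6. CCND2 lay closest to ENDOD1, REEP5 and SGPP1, at 0.0375 to 0.0436. CCNE1 had more distant neighbours, VPS13C at 0.0815, SH3BP2 at 0.13 and E2F1 at 0.135. MCM6 and E2F1 are themselves on the lists of E2F targets and E2F factors above, and none of the other neighbours is on a list. E2F1 was the most distant of all the neighbours named.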

How the data were processed

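The authors deposited gene-level TPM for 8 libraries, made with RSEM on build hg19 after FastQC, Trimmomatic, STAR, Picard and SAMtools, per the submitters' processing notes. The sources used here give no versions, annotation or strandedness, and read depth is unknown. The 10 genes, the lists and the tests were chosen with earlier results of these data known. log2(TPM + 1) of genes at or above 1 TPM in 2 or more libraries was fitted in limma 3.58.1 (R 4.3.3): 4 groups, 4 residual degrees of freedom, mean-variance trend, empirical Bayes, two-sided, Benjamini-Hochberg over all 11894 genes, threshold 0.05. Fold changes understate low genes. As deposited, the prior degrees of freedom were infinite, so all SE come from the trend (median 0.162). Median-ratio scaling gave 5.41 prior degrees of freedom and a median SE of 0.0912. Named genes were all 10 members, TCF7L2, up to 4 genes of a list by p at 72 h (8 for other G1/S regulators) and the nearest neighbours. Gene positions come from the GENCODE annotation of GRCh38, and promoter sequences from RefSeq (GRCh38.p14). The E-box word was added after the CDK4 window had been read. The limma step was run on simulated data with independent noise and no shift shared by a whole library. That run therefore does not cover a library such as 72 h replicate 2. Alternatives were pseudocounts of 0.1 and 5, other filters, scalings and variance models, 2-group fits, a replicate block and leaving out each library.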

Additional observations from a re-analysis of the deposited data

Results flagged for a closer look

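The change from the control differed between siRNA times by limma's test of the later against the earlier time for these genes, all lower at the later time on the log2(TPM + 1) scale as deposited. At 72 h against 48 h the differences were -0.60 for CCND1, -0.45 for CCND2, -0.44 for CCND3, -0.75 for CDK4 and -0.57 for CDC25A. At 72 h against 24 h they were -0.54 for CCND1, -0.70 for CDK4 and -0.53 for CDC25A. In each case both 72 h libraries lay below both libraries of the earlier time. Of all genes tested, 43.2% did so against 48 h and 37.3% against 24 h as deposited. The genes here were listed because they had been called lower, so the lack of overlap is no separate support. Replicate 2 at 72 h had the lowest summed TPM of all libraries. After median-ratio scaling these differences were -0.39, -0.24, -0.24, -0.54 and -0.38 against 48 h, and -0.41, -0.57 and -0.42 against 24 h, of which that of CCND3 no longer passed (adjusted p = 0.0585).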

How the results depend on the processing

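Of 1734 alternative values for the single genes (21 alternatives as deposited, and scaled values with each library left out), 1458 kept their direction and side of the threshold, 112 lost a call, 92 gained one and 72 changed sign. None of those 72 had been called as reported, and 4, all for CDK6 at 72 against 48 h, were called with the new sign. The 72 h falls of CCND1, CCND2, CDK4 and CDC25A passed in every alternative, with adjusted p of 0.02841, 0.03809, 0.03034 and 0.04159 at most. The cause of the differences below was not tested.

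Members called at 24, 48 and 72 h against 0 h, and at 48 against 24, 72 against 48 and 72 against 24 h, were 1, 1, 7, 0, 5 and 3, and 8 by the F-test. Counts further than 1.5 times from these, or from 55, 922, 4968, 597, 3211 and 3977 genes called, follow. With no filter they were 0 and 0 members at 24 and 48 h, 1 at 72 against 48 h, 1 at 72 against 24 h and 2 by the F-test, with 0, 153, 3298, 73, 886 and 2247 genes. With no moderation 5 members passed at 72 h against 0 h and 0 in every other comparison, with 1, 5, 1994, 1, 99 and 1193 genes, and 0 by the F-test. In 2-group fits 6, 5, 4, 2, 1 and 1 members and 607, 3046, 2704, 2107, 959 and 1932 genes passed. A minimum TPM of 5 gave 30 genes at 24 h, 604 at 48 h and 387 at 48 against 24 h. At 24 h median-ratio scaling, quantile normalization and equal sums gave 3, 4 and 4 members and 129, 110 and 170 genes, and at 48 h 5, 5 and 6 members and 2797, 2625 and 3191 genes. At 48 against 24 h they gave 1668, 1554 and 1745 genes, and at 72 against 24 h 8, 5 and 8 members, with 5974 genes by quantile and 4846 genes at 72 against 48 h by equal sums.

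The replicate numbers did not pair the libraries: differences between replicates correlated at -0.087 to 0.106 between groups. As deposited the replicate block gave 51, 864 and 4860 genes at 24, 48 and 72 h and the same member counts, 1, 1 and 7. Scaled, it gave 3 and 5 members and 91 and 2707 genes at 24 and 48 h, 1565 genes at 48 against 24 h and 8 members at 72 against 24 h.

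Under median-ratio scaling (with or without the replicate block), quantile normalization and equal sums, RB1 stood at 0.0829, 0.0846 and 0.0378 at 24 h and 0.0379, 0.0343 and 0.0181 at 72 h, and CDK2 at 0.14, 0.16 and 0.12 at 72 h (0.00035 at 48 h by quantile). At 48 against 24 h they gave -0.029, -0.0533 and -0.0466 for CCND1, -0.0332, -0.0085 and -0.0508 for CDK4, -0.0156, -0.0268 and -0.0302 for CCNE1 and -0.0446, -0.0275 and -0.0615 for CDC25A. At 72 against 48 h they gave 0.20, 0.26 and 0.24 for CDK6 and 0.16, 0.16 and 0.20 for CDK2, and CCNE2 stood at 0.0755 scaled and 0.11 by equal sums.

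Leaving out 1 library as deposited gave 0 to 6, 0 to 5 and 4 to 8 members at 24, 48 and 72 h, 0 to 2 at 48 against 24, 0 to 6 at 72 against 48 and 1 to 7 at 72 against 24 h, and 3 to 10 by the F-test, with 10 to 740, 278 to 3146, 2662 to 7658, 162 to 2297, 955 to 6856 and 1971 to 6777 genes. RB1 ranged from -0.095 to 0.0802 at 24 h, and CDK2 from -0.11 to 0.0566 at 48 h and -0.19 to 0.0571 at 72 h. At 48 against 24 h CCND1 ranged from -0.034 to 0.15, CDK4 from -0.041 to 0.15 and CCNE1 from -0.0421 to 0.16. At 72 against 48 h CDK6 ranged from -0.13 to 0.11, CCNE2 from -0.29 to 0.12 and CDK2 from -0.17 to 0.0829, and CDK6 from -0.0080 to 0.24 at 72 against 24 h. Scaled, it gave 0 to 4 members and 4 to 296 genes at 24 h, 1358 to 3147 genes at 48 h and 622 to 1955 at 48 against 24 h. Scaled ranges that crossed 0 were -0.11 to 0.0693 for CDK2 at 48 h, -0.11 to 0.0116 for CCNE2 and -0.0461 to 0.12 for RB1 at 72 h. At 48 against 24 h they were -0.11 to 0.0567 for CCND1, -0.0086 to 0.25 for CCND3, -0.13 to 0.0529 for CDK4, -0.11 to 0.0777 for CCNE1 and -0.0139 to 0.0972 for RB1. The others were -0.0216 to 0.18 for CCNE2 at 72 against 48 h, and -0.26 to 0.0065 for CCND3 and -0.11 to 0.0254 for RB1 at 72 against 24 h.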
